A study of Macaca mulatta with 25 samples.

Results

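Transcripts of 10 chaperone genes, whose proteins help other proteins to fold, were followed in blastocysts of the rhesus macaque, embryos that have formed a cavity and are close to implanting. The genes were taken by symbol: HSPA8, HSPA4, HSPH1 and HSPA9 of the HSP70 and HSP110 families, HSP90AA1 and HSP90AB1 of the HSP90 family, HSPD1 and HSPE1 of the mitochondrial chaperonin, and the J-domain genes DNAJA1 and DNAJB1. The symbols were paired with 12 of the 35395 rows of the count table, because HSPE1 had 3 Ensembl identifiers. The row ENSMMUG00000016547 held nearly all HSPE1 counts and stands for the gene here. Of the other HSPE1 rows, ENSMMUG00000038252 averaged 0.673 CPM (counts scaled to a common library size) in controls, and ENSMMUG00000040870 averaged 0.193 and was too low to be tested. All 10 genes were among the 13934 genes tested.

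The embryos came from eggs of female macaques treated from 2.5 years of age, just before puberty, and for 5 to 6 years thereafter. Controls (C) carried cholesterol implants and ate standard chow with 15% fat, 59% carbohydrate and 26% protein. The T group carried testosterone implants, set to hold blood testosterone at 3 to 5 times the usual level, and ate the same chow. The WSD group ate an obesogenic Western-style diet with 36% fat, 46% carbohydrate and 18% protein, with no implant named in the labels, and the TWSD group had the testosterone implants and this diet together. Each group started with 10 females, of which 10 C, 7 T, 6 WSD and 3 TWSD animals went through ovarian stimulation, the others being lost to health problems. All eggs were fertilised in vitro with semen from 4 males and cultured for up to 8 days. The table held 5 C, 10 T, 8 WSD and 2 TWSD libraries. The labels do not tie libraries to mothers, fathers or days, or say whether 1 library is 1 embryo, so each p-value rests on library-to-library spread, and some libraries may share a parent.

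As background, HSP70 proteins bind exposed stretches of unfolded chains and release them in a cycle driven by ATP. J-domain proteins bring clients to HSP70 and speed up its ATP use, and HSP110 proteins exchange its nucleotide so that the client is let go. HSP90 takes over clients late in folding, among them kinases and steroid hormone receptors. Inside mitochondria, HSPA9 pulls imported chains through the membrane, and HSPD1 rings capped by HSPE1 enclose them while they fold. Heat shock factors can raise many of these genes under stress, and several are also abundant in unstressed, growing cells.

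Libraries held 14219054 to 35544542 counts, and 14247 to 21793 genes were detected per library. CPM levels below are scaled with TMM factors, which correct for differences in library make-up; these factors were 0.708 in C 12 and 0.763 in TWSD 2 against 0.945 to 1.10 elsewhere. Markers of the trophectoderm, the outer layer of the blastocyst, summed to 1602 to 17360 CPM over 6 genes, and none of them was at 0 in any library. Markers of the epiblast, the cells that form the embryo proper, summed to 448 to 1732 CPM over 7 genes in 23 libraries, but to 27.8 CPM in C 11 and 8.05 CPM in C 12. C 8, C 11, C 12 and T 1 stood apart by CGA, a placental hormone subunit, with 3025, 2400, 1073 and 1004 CPM against at most 4.24 in the other 21 libraries. Their 6 syncytiotrophoblast markers summed to 10310, 3376, 7765 and 3051 CPM, against 29.2 to 186.6 elsewhere. Cumulus and granulosa markers summed to 2710 CPM in C 8, 2141 in C 11 and 992 in C 12 and to at most 818 in the other libraries, with 3 to 5 of 10 markers at 0 in controls. CYP11A1, a steroid-making gene that trophoblast also uses, gave 2618 CPM of that sum in C 8, 806 in C 11 and 834 in C 12. In C 11 other markers of the list thus made up most of the sum. FSHR, which marks granulosa cells, was at 0 in every control, but it is only 1 of the 10 markers. Other markers of the list were above 0 in each control, and whether such cells were present was not tested. Blood cell markers summed to 288 CPM in C 11 and 102 in C 12 against at most 20.4 elsewhere. These sums were CD14 (239.9 CPM) and ALAS2 (46.2) in C 11 and ALAS2 (100.8) in C 12, while PTPRC was at most 1.91 and SPI1 at most 0.774 CPM in any library. Sperm markers reached at most 3.45 CPM (6 genes) and oocyte markers at most 205.7 CPM (10 genes). The part of these cell types in the values below was not tested. In whole embryos, a change in the number of cells of a type and a change of RNA per cell cannot be told apart.

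Of the 10 chaperone genes, 7 had higher fitted levels in T than in controls, 6 in WSD and 8 in TWSD, and few of the differences passed the test. HSPA4 rose with testosterone and with both treatments, 1.72-fold and 3.00-fold, and HSP90AA1 rose with testosterone and with the diet, 1.78-fold and 1.83-fold. No member fell in any comparison with controls at this threshold. A rise or fall here means an adjusted p under 0.05 in the quasi-likelihood test of edgeR, adjusted by the Benjamini-Hochberg method over the 13934 genes. All values with ± after a log2 change are standard errors.

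In T against C, 2 of 10 members rose and 8 did not pass, where 4.11% of all genes tested were called and 0.337% were called higher. In WSD against C, 1 rose and 9 did not pass, with 4.07% of all genes called and 0.466% called higher. In TWSD against C, 1 rose and 9 did not pass, with 1.20% of all genes called and 0.861% called higher. The median log2 change of the 10 members was 0.505 in T, 0.262 in WSD and 0.614 in TWSD, beside -0.116, -0.122 and -0.377 over all genes tested. Leaving out C 8, C 11 and C 12 gave members' medians of 0.472, 0.274 and 0.501, beside 0.0819, 0.0574 and -0.0679 over all genes. With those 3 controls left out, edgeR called 0 members in T, WSD and TWSD (1, 1 and 3 at an unadjusted p under 0.05) and 1, 1 and 18 of all genes. Only C 1 and C 2 remained as controls in that fit, so a lost call alone does not mean a smaller change. With all libraries, DESeq2 called 3, 2 and 2 members and 7.87%, 8.40% and 14.3% of all genes, while limma voom with quality weights called 0 members and 0 of all genes in each comparison (5, 3 and 1 members unadjusted). Single libraries also moved the share of all genes called. Without C 1 it was 8.96% in T, 7.92% in WSD and 4.88% in TWSD, and without C 12 it was 0.459%, 0.409% and 2.40%. In TWSD 2784 of the 13934 genes were called without TWSD 3 and 0 without TWSD 2, by edgeR. The T, WSD and TWSD comparisons share their control libraries.

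**Figure D1:**
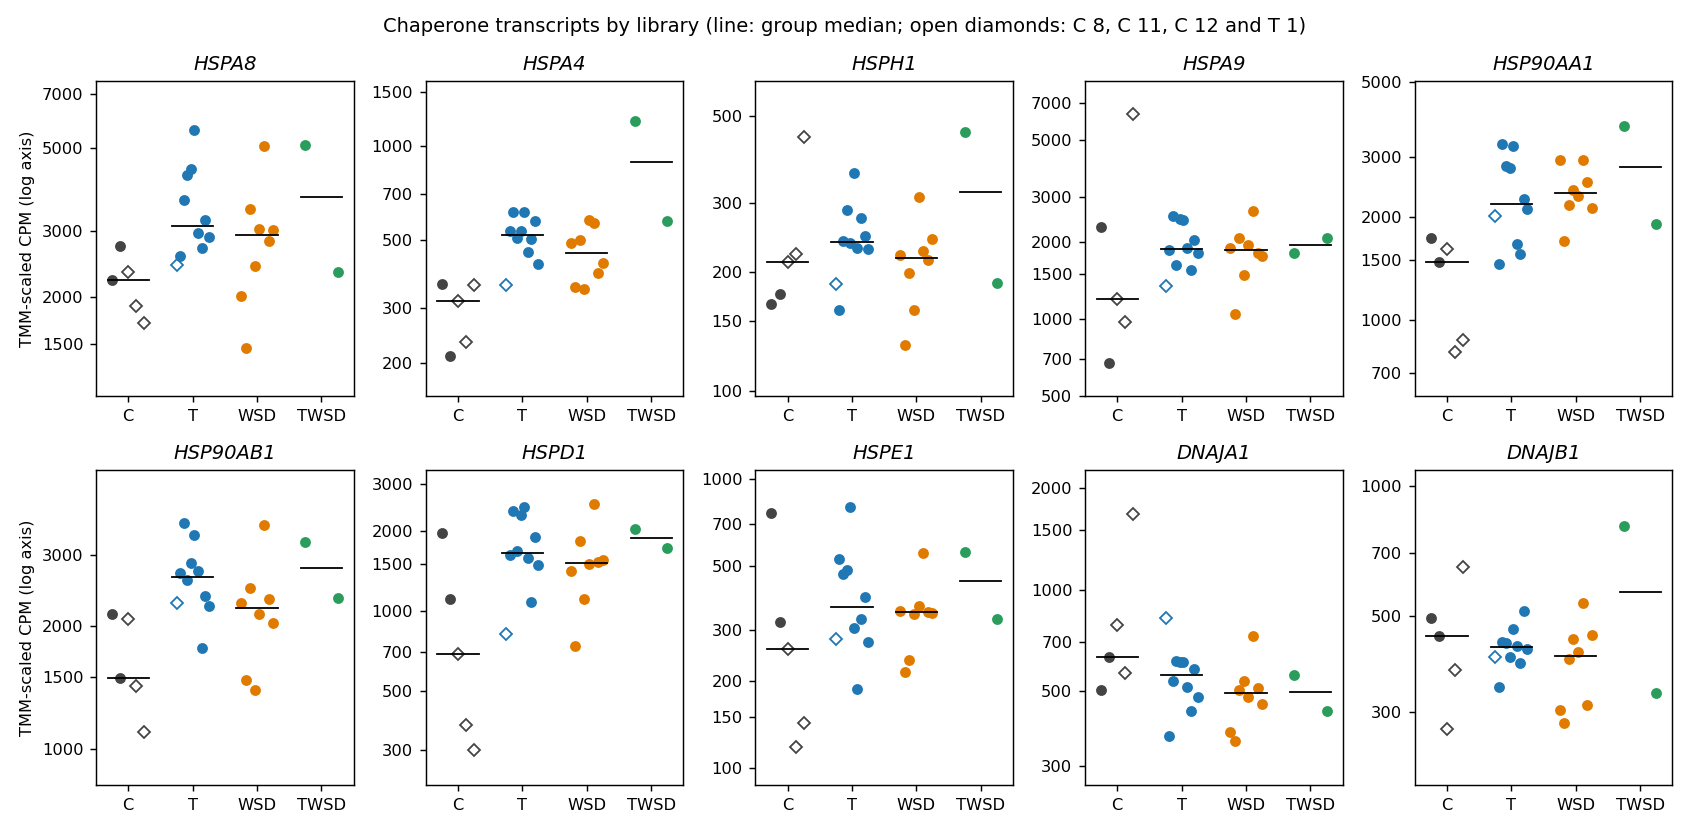
Level of each of the 10 chaperone genes in the 25 libraries, as TMM-scaled CPM on a log axis, by group (C, n = 5; T, n = 10; WSD, n = 8; TWSD, n = 2). Each point is 1 library, lines are group medians and open diamonds are C 8, C 11, C 12 and T 1; HSPD1 lies lowest in C 11 and C 12, where HSPA9 and DNAJA1 are highest in C 12.

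**Figure D2:**
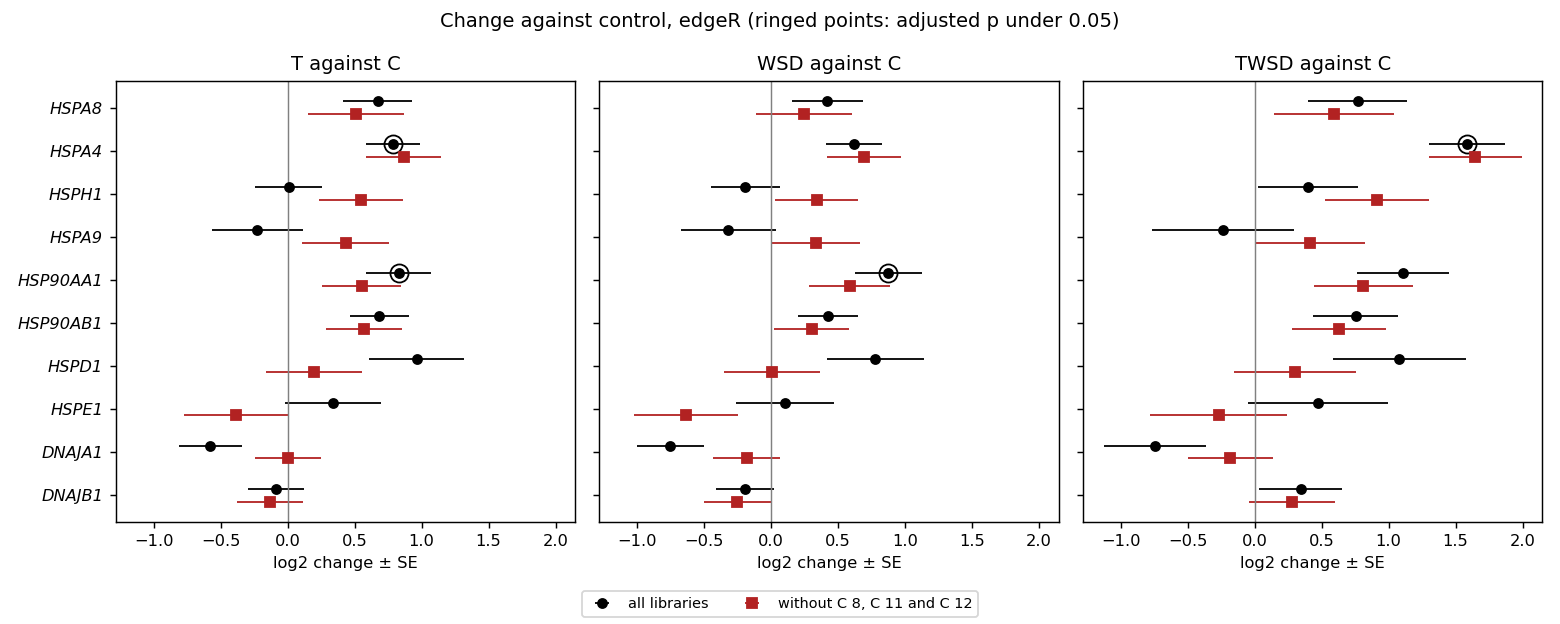
Log2 change of each gene against controls with its standard error, from all libraries (black circles) and without C 8, C 11 and C 12 (red squares), in T, WSD and TWSD. Ringed points passed at an adjusted p under 0.05: HSPA4 in T and TWSD and HSP90AA1 in T and WSD, and no red square is ringed.

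HSPA8 (ENSMMUG00000004696) encodes the constitutive cytosolic HSP70, which folds newly made chains and strips clathrin from vesicles. Control levels, here and below in the order C 1, C 2, C 8, C 11, C 12, were 2226, 2733, 2328, 1894 and 1700 CPM. In T it ran from 2428 to 5612 CPM with a median of 3090, and in WSD from 1463 to 5063 with a median of 2925. The TWSD libraries held 5103 and 2325 CPM. The T range began inside that of the controls, and WSD 3 lay below every control in scaled CPM. In CPM with no TMM factor, C 12 was the lowest library (1197) and WSD 3 the next (1576). The log2 change was 0.67 ± 0.26 in T (adjusted p = 0.143), 0.42 ± 0.26 in WSD (adjusted p = 0.431) and 0.77 ± 0.37 in TWSD (adjusted p = 0.222). It passed in TWSD when TWSD 3 was left out, at 1.23 ± 0.44 (adjusted p = 0.0481), in a fit that called 2784 of all genes, and was 0.11 ± 0.47 without TWSD 2 (adjusted p = 0.966).

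HSPA4 (ENSMMUG00000009396) is a member of the HSP110 family that exchanges nucleotide on HSP70. Control libraries held 360, 211, 318, 233 and 358 CPM. In T it ran from 357 to 615.5 CPM with a median of 519, and in WSD from 346 to 579.7 with a median of 454. TWSD 2 held 1202 CPM and TWSD 3 held 576. T 1, WSD 3 and WSD 6 overlapped the highest controls, and both TWSD libraries lay above every control. It rose in T by a log2 change of 0.79 ± 0.20 (adjusted p = 0.0277), from 296 ± 70.0 CPM (SD, n = 5) to 511 ± 82.5 (n = 10). It rose in TWSD by 1.59 ± 0.28 (adjusted p = 0.0123), and the change in WSD, 0.62 ± 0.21, did not pass (adjusted p = 0.0866) except with library totals (0.76, adjusted p = 0.0361). When C 8, C 11 and C 12 were left out, the log2 changes were 0.87 ± 0.28, 0.69 ± 0.28 and 1.65 ± 0.34 for T, WSD and TWSD, and none passed (adjusted p = 0.776, 0.704 and 0.0519). The T call was also lost when C 2, C 11, C 12 or T 7 alone was left out (adjusted p = 0.058, 0.0691, 0.0547 and 0.0556). The TWSD value was 0.97 ± 0.33 without TWSD 2 (adjusted p = 0.636) and 2.02 ± 0.31 without TWSD 3 (adjusted p = 0.00011), where 0 and 2784 of all genes were called.

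HSPH1 (ENSMMUG00000013707) encodes HSP105, the other HSP110 protein of the set, which is inducible by heat. Its 5 control values were 166, 176, 212, 223 and 443 CPM. The T libraries held 161 to 357 CPM (median 239) and the WSD libraries 131 to 312 (median 218). TWSD 2 held 455 CPM and TWSD 3 held 187.5. C 12 and TWSD 2 were the highest of the 25 libraries, and the rest of the 3 larger groups overlapped throughout. The log2 change was 0.01 ± 0.25 in T, -0.19 ± 0.26 in WSD and 0.40 ± 0.37 in TWSD (adjusted p = 0.992, 0.775 and 0.542). With DESeq2 size factors the T value turned to -0.10, and with library totals the WSD value turned to 0.01. Its values became 0.55 ± 0.31, 0.34 ± 0.31 and 0.92 ± 0.39 without C 8, C 11 and C 12.

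HSPA9 (ENSMMUG00000005875) encodes mortalin, the HSP70 of the mitochondrial matrix. The controls read 2290, 673.7, 1199, 976 and 6320 CPM. In T it ran from 1348 to 2538 CPM (median 1881) and in WSD from 1051 to 2636 (median 1856), and the TWSD libraries held 1817 and 2078. Controls thus lay on both sides of the treated libraries: C 2 and C 11 were below each of the 20 treated libraries and C 12 was above each of them. The SD was 102% of the mean in C, against 24.8% in WSD and 410 CPM around a mean of 1958 in T. Mean changes against controls did not pass in T (-0.23 ± 0.34, adjusted p = 0.801), WSD (-0.32 ± 0.35, adjusted p = 0.714) or TWSD (-0.24 ± 0.53, adjusted p = 0.818), and the T value was 0.07 with library totals. Leaving out C 8, C 11 and C 12 turned the signs, to 0.43 ± 0.33, 0.33 ± 0.33 and 0.41 ± 0.41.

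HSP90AA1 (ENSMMUG00000054990) encodes the stress-inducible cytosolic HSP90 alpha. It stood at 1745, 1483, 1621, 808 and 876 CPM in the controls. The T libraries ran from 1458 to 3280 CPM with a median of 2190, the WSD libraries from 1708 to 2942 with a median of 2354, and TWSD 2 and TWSD 3 held 3720 and 1911. C 11 and C 12 lay below each treated library, while T 3, T 8, T 9 and WSD 3 lay under C 1, the highest control. HSP90AA1 rose in T by 0.83 ± 0.24 (adjusted p = 0.0496) and in WSD by 0.87 ± 0.25 (adjusted p = 0.0457). The TWSD value, 1.11 ± 0.34, did not pass (adjusted p = 0.0836), although both libraries lay above every control. Without C 8, C 11 and C 12 the values were 0.55 ± 0.30, 0.59 ± 0.30 and 0.81 ± 0.37 (adjusted p = 0.998, 0.761 and 0.312).

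Both HSP90AA1 calls were close to the threshold. In T the call was lost without C 11 (0.70, adjusted p = 0.132) or C 12 (0.73, adjusted p = 0.185), and also without T 4, T 5, T 6, T 7, T 8, T 10 or T 11 (adjusted p from 0.0506 to 0.0877). In WSD it was lost without C 11 (0.74, adjusted p = 0.109) or C 12 (0.76, adjusted p = 0.161), and without any WSD library other than WSD 3 (adjusted p from 0.0624 to 0.0812). The TWSD value passed with DESeq2 (adjusted p = 0.0351), which called 14.3% of all genes. It also passed without C 1 (1.23, adjusted p = 0.0439), where 4.88% of all genes were called. Without TWSD 3 or TWSD 2 a single TWSD library is left, so only the sizes are given for these fits. The value was 1.51 without TWSD 3 and 0.57 without TWSD 2.

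HSP90AB1 (ENSMMUG00000022685) encodes the constitutive HSP90 beta. Among controls it read 2141, 1493, 2087, 1431 and 1101 CPM. T libraries held 1772 to 3598 CPM (median 2652), WSD libraries 1392 to 3551 (median 2216), and the TWSD pair 3219 and 2353. In T, 9 of 10 libraries lay above the highest control and T 9 lay below it. The log2 change was 0.68 ± 0.22 in T (adjusted p = 0.0747), 0.42 ± 0.23 in WSD (adjusted p = 0.33) and 0.76 ± 0.32 in TWSD (adjusted p = 0.17), and none passed. The T value passed with DESeq2 (0.62, adjusted p = 0.0389) and without C 1 (0.80, adjusted p = 0.0368). HSPA4, HSP90AA1 and HSP90AB1 were the 3 members whose TWSD libraries lay above every control, where over all genes tested 12.0% had TWSD and C ranges without overlap and 5.29% lay higher in TWSD. In T and in WSD the ranges of 0 of 10 members were clear of the controls, where 0.280% and 0.696% of all genes were.

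HSPD1 (ENSMMUG00000010489) encodes HSP60, the ring-forming subunit of the mitochondrial chaperonin. Its control levels were 1968, 1104, 690, 373 and 299.7 CPM. In T it ran from 819 to 2450 CPM (median 1654) and in WSD from 735 to 2510 (median 1514), and TWSD held 2026 and 1724. C 8, C 11 and C 12 were below each of the 20 treated libraries, and T 1 was the lowest T library. C 1 lay in the upper part of the T and WSD ranges. The log2 change was 0.96 ± 0.35 in T, 0.78 ± 0.36 in WSD and 1.08 ± 0.50 in TWSD, and none passed (adjusted p = 0.124, 0.246 and 0.205). Without C 1 each of the 3 passed, at 1.49 ± 0.35, 1.30 ± 0.35 and 1.60 ± 0.45 (adjusted p = 0.00902, 0.0223 and 0.0414), where 8.96%, 7.92% and 4.88% of all genes were called. Leaving out C 8, C 11 and C 12 instead gave 0.20 ± 0.36, 0.00 ± 0.36 and 0.30 ± 0.45.

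HSPE1 encodes HSP10, the lid of the same chaperonin. The controls held 762, 320, 259, 118 and 144 CPM. The T libraries held 188 to 797 CPM (median 360), the WSD libraries 215 to 553 (median 346), and TWSD 561 and 329. C 11 and C 12 were below each treated library, as for HSPD1, while C 1 was exceeded by T 6 alone. The log2 change was 0.34 ± 0.36 in T, 0.10 ± 0.37 in WSD and 0.47 ± 0.52 in TWSD (adjusted p = 0.69, 0.932 and 0.61), and without C 8, C 11 and C 12 it turned to -0.38 ± 0.38, -0.63 ± 0.39 and -0.27 ± 0.51. HSPD1 and HSPE1 have processed pseudogenes in primates, as HSPA8 and HSP90AB1 do, so how reads of near-identical copies were assigned can affect their counts.

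DNAJA1 (ENSMMUG00000007740) encodes a J-domain protein that hands clients to HSPA8 and takes part in mitochondrial import. Levels in controls were 504, 631, 785, 565.5 and 1679 CPM. It was at 368 to 823 CPM in T (median 559), with T 1 highest, 356.5 to 728 in WSD (median 494), and 558 and 437 in TWSD. C 12 lay above each of the 20 treated libraries, and the other controls fell inside their range. The log2 changes of -0.58 ± 0.24 in T (adjusted p = 0.173), -0.75 ± 0.25 in WSD (adjusted p = 0.0805) and -0.74 ± 0.38 in TWSD (adjusted p = 0.253) did not pass. In WSD it passed with DESeq2 (-0.87, adjusted p = 0.0255), with DESeq2 size factors in edgeR (-0.87, adjusted p = 0.0465), without C 1 (-0.89, adjusted p = 0.0291) and without C 2 (-0.87, adjusted p = 0.0433). With C 12 alone left out the WSD value was -0.33 (adjusted p = 0.544), and without C 8, C 11 and C 12 the T, WSD and TWSD values were 0.00 ± 0.25, -0.18 ± 0.25 and -0.18 ± 0.32.

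DNAJB1 (ENSMMUG00000017906) encodes HSP40, a J-domain partner of HSP70 that is induced with it under heat shock. The control values were 497, 450.1, 275, 376.5 and 651 CPM. It was the most even member in T, at 344 to 514 CPM (median 424) and an SD of 10.7% of the mean, and held 282.5 to 536 CPM in WSD (median 405.5). TWSD 2 held 810 CPM, the highest of all libraries, and TWSD 3 held 332. The log2 change was -0.09 ± 0.21 in T, where library totals turned it to 0.09, -0.20 ± 0.22 in WSD and 0.34 ± 0.31 in TWSD (adjusted p = 0.89, 0.711 and 0.529).

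The single treatments were compared with each other, a contrast in which control levels play no part, although all libraries share 1 estimate of the spread. It asks whether testosterone and the diet leave different chaperone levels. In T against WSD, 0 of 10 members passed by edgeR, where 0% of all genes tested were called. At an unadjusted p under 0.05 there were 0 members and 237 of all genes, and DESeq2 and limma voom with quality weights called 0 members as well (6 and 0 of all genes). The members' log2 changes lay between -0.04 and 0.26, with 9 of 10 higher in T. HSP90AA1, at -0.04 ± 0.20, was the member lower in T, and HSP90AB1, at 0.26 ± 0.19, was at the upper end (adjusted p = 0.9997 for both).

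Embryos with both treatments were set against the mean of the single treatments, and 0 of 10 members passed by edgeR, where 0.100% of all genes were called. HSPA4 was 1.84-fold higher, a log2 change of 0.88 ± 0.25 (adjusted p = 0.0975), and was the 1 member with an unadjusted p under 0.05. It passed with DESeq2 (0.84, adjusted p = 0.0414), in the fit of these groups alone (0.87, adjusted p = 0.0346) and without TWSD 3 (1.32, adjusted p = 0.00241), and limma voom called 0 members. DESeq2 called 4.84% of all genes in this comparison, and the fit without TWSD 3 called 19.4%. In scaled CPM, TWSD 2 had the highest level of 4 members over all 25 libraries (HSPA4, HSPH1, HSP90AA1 and DNAJB1). TWSD 3 lay inside the range of the single treatments for each of the 10. In CPM with no TMM factor, TWSD 2 was highest in HSPA4 and DNAJB1, 2nd in HSPH1 and 7th in HSP90AA1. The members' median log2 change was 0.239 with TMM and 0.00139 with library totals, where 5 were higher and 5 lower. Over all genes these medians were -0.198 and -0.334. Without TWSD 2 the HSPA4 value was 0.26. DNAJB1, at 0.48 ± 0.27 (adjusted p = 0.405), passed without TWSD 3 (0.99, adjusted p = 0.0271) and turned to -0.29 without TWSD 2.

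The interaction asks whether the diet acts differently in females that also received testosterone, and it passed for 0 of 10 members by edgeR, where 0.0718% of all genes were called. At an unadjusted p under 0.05 there were 0 members, and DESeq2 and limma voom called 0. The members' values ran from -0.66 (HSPD1) to 0.63 (DNAJB1, ± 0.36, adjusted p = 0.451), and DNAJB1 passed without TWSD 3 (1.13, adjusted p = 0.0423), where 16.0% of all genes were called.

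Ratios of read counts between 2 members in the same library do not depend on the scaling of libraries. The HSPA9 to HSPD1 ratio, mitochondrial HSP70 to chaperonin ring, was 1.16, 0.61, 1.74, 2.62 and 21.1 in the controls. It stayed between 0.897 and 1.65 in the 20 treated libraries, with T 1 highest. C 12 combined the highest HSPA9 level of all libraries with the lowest HSPD1 level.

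For HSPD1 to HSPE1, ring to lid, the control ratios were 2.58, 3.45, 2.66, 3.15 and 2.09. In T it ran from 2.88 to 8.38 (median 4.17), in WSD from 3.23 to 7.68 (median 4.25), and it was 3.61 and 5.24 in TWSD. The 2 controls with the highest ratios, C 2 and C 11, overlapped the lower treated libraries. C 1, with the highest level of both genes among controls, had a ratio inside the control range.

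The DNAJB1 to DNAJA1 ratio was lowest in C 8 (0.35), C 12 (0.388) and T 1 (0.489), and lay between 0.609 and 1.45 in the other 22 libraries. The HSP90AA1 to HSP90AB1 ratio, inducible to constitutive HSP90, spanned 0.565 to 0.993 among controls, 0.539 to 1.09 among T libraries and 0.828 to 1.73 among WSD libraries, where WSD 6 was highest, and the groups overlapped. It was 1.16 and 0.812 in TWSD 2 and TWSD 3. The 10 members together took 0.675% to 1.33% of all counts in a control library, against 1.12% to 1.95% for T, 0.836% to 1.87% for WSD, and 1.28% and 1.48% for the TWSD pair.

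**Figure D3:**
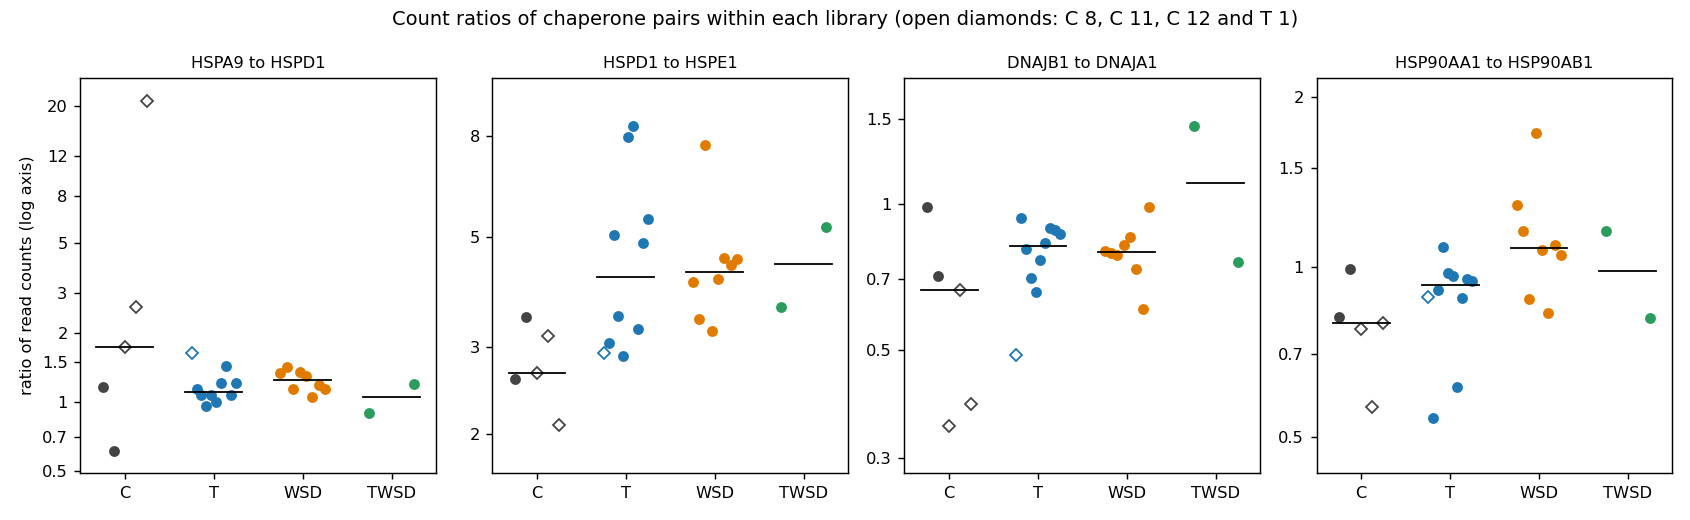
Count ratios of 4 pairs of chaperone genes within each library, on log axes, by group; lines are group medians and open diamonds are C 8, C 11, C 12 and T 1. The HSPA9 to HSPD1 ratio reaches 21.1 in C 12 and lies between 0.897 and 1.65 in the treated libraries.

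Likeness between members was described by Pearson's r of log2 CPM over the 25 libraries, which share groups, scaling and library make-up. Over the 45 pairs of members the median r was 0.464, with 6 pairs below 0, each with DNAJA1 or HSPH1. Without C 8, C 11, C 12 and T 1 the median over 21 libraries was 0.55 and 0 pairs were below 0. HSP90AB1 and HSPD1 went together in both sets (r = 0.837 and 0.894; Spearman's rho = 0.859 over 25 libraries). HSPD1 and HSPE1, which lie next to each other in the RefSeq annotation of another assembly named T2T-MMU8v2.0, had r = 0.764 over 25 libraries (rho = 0.67) and 0.55 over 21. For other pairs the sign or size rested on the libraries that stood apart. HSPD1 with DNAJA1 went from -0.44 to 0.564, HSPA9 with HSPD1 from 0.167 to 0.815, and HSPA8 with its J-domain partner DNAJA1 from 0.039 to 0.775. HSPA4 with HSPH1, the HSP110 pair, went from 0.515 to 0.722.

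**Figure D4:**
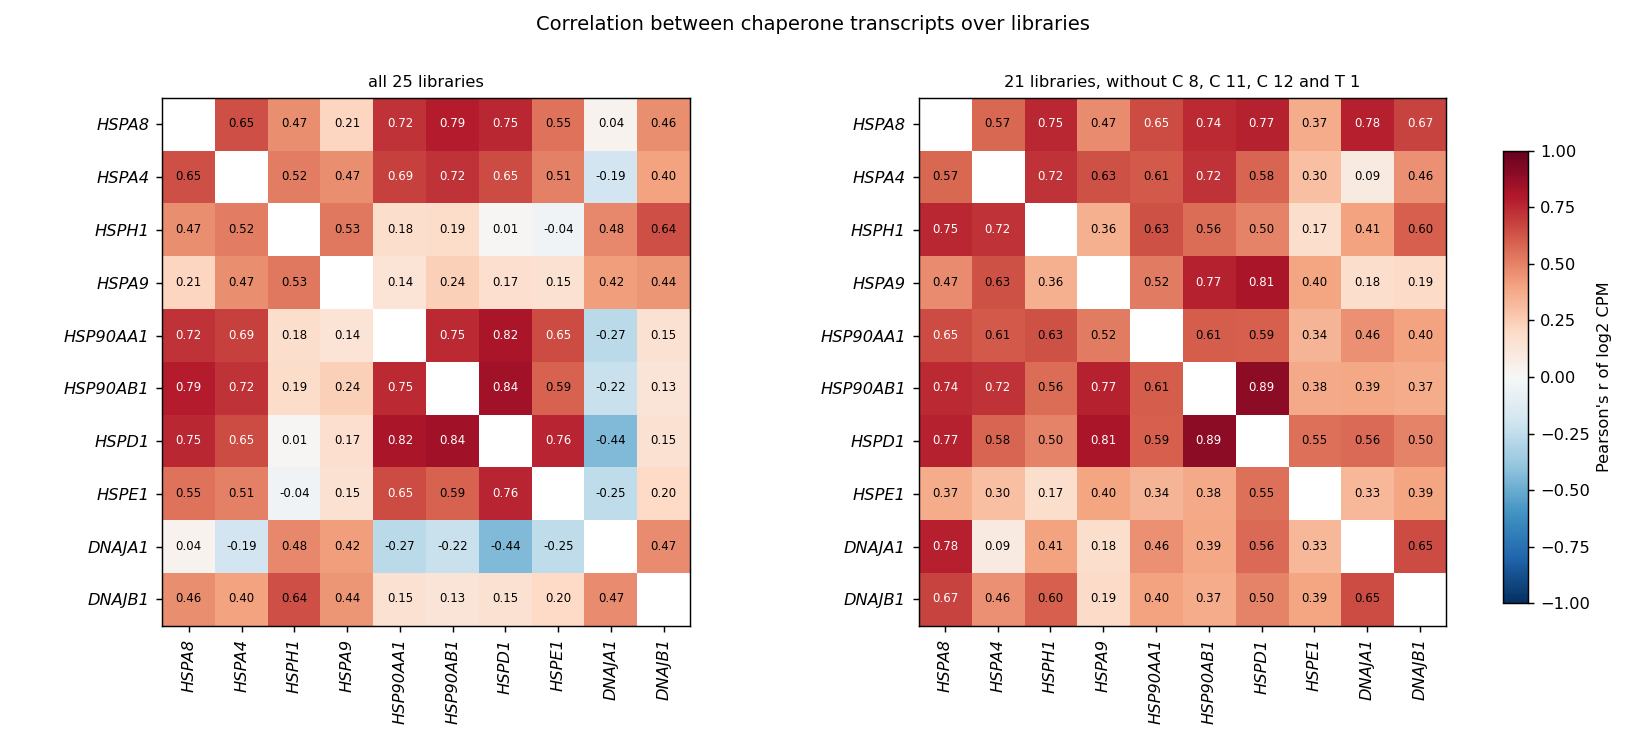
Pearson's r of log2 CPM between each pair of the 10 chaperone genes, over all 25 libraries (left) and over 21 libraries without C 8, C 11, C 12 and T 1 (right); red is positive and blue negative. Negative values on the left, down to -0.44 for HSPD1 with DNAJA1, are absent on the right.

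For each member the 3 genes with the highest r over 25 libraries were taken among 12604 others with a symbol. HSPD1 was most like MRPS22, a subunit of the mitochondrial ribosome (r = 0.951), C1QBP, a protein of the mitochondrial matrix (0.947), and ME2, the mitochondrial malic enzyme (0.94). HSPE1 was most like TFAM, which packs and transcribes mitochondrial DNA (0.868), TWF1, an actin-binding protein (0.857), and CYCS, cytochrome c (0.834). Its chaperonin partner HSPD1 ranked 40th for HSPE1, and HSPE1 ranked 337th for HSPD1. HSPA9 was most like UTP15, which acts in ribosome assembly (0.874), MTPAP, the mitochondrial poly(A) polymerase (0.843), and POM121C, of the nuclear pore (0.827).

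In the cytosolic set, HSPA4 was most like RARS1, an aminoacyl-tRNA synthetase (0.902), HNRNPAB (0.882) and LRPPRC, which stabilises mitochondrial transcripts (0.877). HSPA8 was most like INTS5 (0.84), TIMM50, of the mitochondrial import machinery (0.801), and HSP90AB1 (0.789). HSP90AA1 was most like CCNB1, the cyclin of mitotic entry (0.878), MRPS22 (0.859) and NAP1L1, a histone chaperone (0.847). HSP90AB1 was most like UMPS, which completes pyrimidine synthesis (0.839), HSPD1 (0.837) and PTCD2 (0.831). HSPH1 was most like TRMT6, of a tRNA methyltransferase (0.771), NOP58, of nucleolar particles (0.77), and CDC5L, a splicing factor (0.759). DNAJA1 was most like PCGF1 (0.844), SSU72 (0.843) and MCEE (0.842), and DNAJB1 was most like NANS (0.833), MAIP1 (0.817) and RAB8A (0.814). Over 21 libraries the values for PCGF1 with DNAJA1 and POM121C with HSPA9 were 0.476 and 0.625.

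Other chaperone genes were taken as lists by family. The 8 subunits of TRiC, the cytosolic chaperonin that folds actin and tubulin, had 0 calls in T and in WSD by edgeR (1 unadjusted in each), and 2 of 8 rose in TWSD with 8 of 8 higher and a median log2 change of 0.702, beside 0.861% of all genes called higher and a median of -0.377. DESeq2 called 0, 0 and 2 of the 8, where it called 7.87%, 8.40% and 14.3% of all genes. With limma voom 0 genes of these lists were called. TCP1 averaged 701 ± 247 CPM among the 5 controls (SD) against 3254 and 966.5 in TWSD 2 and TWSD 3 (1.59 ± 0.35, adjusted p = 0.0219). CCT8 averaged 435 ± 94.5 CPM among controls, with 1640 and 588 in TWSD (1.36 ± 0.30, adjusted p = 0.0249). DNAJC11, a J-domain protein of mitochondria, rose as 1 of 20 other J-domain genes, from 122 ± 41.1 CPM to 610 and 221 (1.76 ± 0.36, adjusted p = 0.0177). Without TWSD 2 these 3 values were 0.48, 0.45 and 0.87, and none passed (adjusted p = 0.698, 0.678 and 0.636).

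HSPB8, a small heat shock protein that works with BAG3 in chaperone-assisted autophagy, fell in T and in WSD as 1 of 3 tested members of its list. In these comparisons 3.77% and 3.60% of all genes were called lower. Control levels of HSPB8 were 1.29, 127, 735, 322 and 2260 CPM. In T it was at 84.1 ± 51.7 CPM (SD, n = 10; log2 change -3.03 ± 0.71, adjusted p = 0.0164) and in WSD at 64.4 ± 28.1 (n = 8; -3.42 ± 0.77, adjusted p = 0.0147). C 8, C 11 and C 12 were high, and without them the values turned to 0.41 and 0.02 (adjusted p = 0.998 and 0.999). BAG3 itself, at 457 CPM in C 12 and 253 in C 8, had a log2 change of -1.41 ± 0.43 in T (adjusted p = 0.0639). Of 7 HSP70 exchange factors, 0 passed in T, WSD or TWSD by edgeR (2, 2 and 5 unadjusted). DESeq2 called 1 lower in T, 2 lower in WSD, and 2 higher and 1 lower in TWSD. Over all genes it called 7.87%, 8.40% and 14.3%.

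Of 13 rows for 12 endoplasmic reticulum chaperones, 3 fell in T (HSPA5, HYOU1 and DNAJB9) and 2 fell in WSD (HYOU1 and DNAJB9), where 3.77% and 3.60% of all genes were called lower. In TWSD 0 rows passed by edgeR (5 unadjusted), and DESeq2 called 3 lower, where it called 14.3% of all genes. By edgeR 8 of 13 were higher in TWSD and the median was 0.333. In T and WSD 0 and 1 of 13 were higher, with medians of -0.384 and -0.33. The TWSD libraries held 2074 and 12780 CPM of HSPA5, 57.85 and 93.93 of HYOU1, and 24.54 and 42.99 of DNAJB9. Whether the direction of the list in TWSD holds in each library was not tested. HSPA5, the HSP70 of that compartment, had control levels of 2459, 2649, 2226, 7467 and 25900 CPM. It changed by -1.64 ± 0.45 in T (adjusted p = 0.0361), and this became -0.49 without C 12 (adjusted p = 0.66) and 0.06 without C 8, C 11 and C 12. HYOU1, its HSP110 partner, fell by 1.39 on the log2 scale in T and by 1.31 in WSD, and DNAJB9, its J-domain partner, had log2 changes of -2.98 and -2.92. Without C 12 those of HYOU1 were -0.84 and -0.76 (adjusted p = 0.217 and 0.285) and those of DNAJB9 were -1.71 and -1.66 (adjusted p = 0.0559 and 0.0759). Leaving out C 8, C 11 and C 12 gave -0.03 and 0.04 for HYOU1 and -0.44 and -0.40 for DNAJB9 (adjusted p from 0.94 to 0.998). High HSPA5 in C 12 stood beside high HSPA9, DNAJA1 and HSPH1 in the same library, whereas HSPA8, HSP90AB1 and HSPD1 were at their lowest among controls there.

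The remaining lists had 0 calls in the 3 comparisons with controls by edgeR. These were the other HSP70 genes (5 tested), prefoldin (6), HSP90 and HSP70 cochaperones (16), heat shock factors with their binding protein HSBP1 (4) and mitochondrial chaperones and proteases (11), with 1, 1, 4, 1 and 3 unadjusted p-values under 0.05 in T. DESeq2 called 0 genes of these 5 lists in T, 1 in WSD (a prefoldin subunit) and 4 in TWSD. Over all genes it called 7.87%, 8.40% and 14.3%. HSPA13, VBP1, HSF4 and AFG3L2 had the smallest p in T among the other HSP70 genes, prefoldin, the heat shock factors and the mitochondrial list, with log2 changes of -1.19, 0.75, -3.93 and 0.70 (adjusted p from 0.164 to 0.254). HSF4 was near the floor in most libraries, with a median of 1.365 CPM and a highest value of 43.57 in controls, and a median of 0.198 in T. Its T value ran from -4.44 to -0.62 when 1 library was left out. HSF1, HSF2 and HSF4 had values below 0 in T and in WSD, and HSBP1 was at 0.13 ± 0.28 in T and -0.05 ± 0.29 in WSD, none of them passing. No rows were matched for HSPA1A, HSPA1B, HSPA2 and HSPA6, the strongly inducible HSP70 genes among them, and they were not analysed here.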

How the data were processed

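RNA sequencing reads of 25 blastocyst libraries were handled with FastQC 0.11.8, Trimmomatic 0.39 and STAR 2.7.0 on the build Mmul_10, per the submitters' processing notes. The authors deposited raw read counts per gene; no source used here names the counting tool, annotation or strand setting, so reads of overlapping or near-identical genes may be shared. A symbol table named 24173 of 35395 identifiers. Genes reaching 1 CPM or more in 5 or more libraries were tested with edgeR 4.0.16 (R 4.3.3, TMM, quasi-likelihood F-test, robust). The model held the 4 groups and was fitted to the 25 libraries. The procedure was run on simulated counts with less spread between libraries than here and no outlying library. The common biological coefficient of variation, a measure of that spread, was 0.9 in these data. The simulation therefore does not show how the test performs at this spread. Standard errors are the log2 change divided by the root of F. Correlations used log2 CPM with a prior count of 2. Within groups no library repeated another (84 pairs, smallest chi-square per gene 47.4).

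Alternatives used DESeq2 1.42.0, limma 3.58.1, other scalings, no filter, fewer libraries and a term for the number in the title. All 10 members are named; of other lists, genes that passed or, where none did, the gene with the smallest p in T; and for each member the 3 genes with the highest r. One gene that this rule names is not reported here. Members and lists were chosen with earlier results of these data known. C 8, C 11, C 12 and T 1 were left out together for the same reason. Scaling moved the median log2 change of all genes in T from -0.116 to -0.186 with DESeq2 size factors and to 0.0227 with library totals. Intervals are limited by 5 controls and 2 TWSD libraries.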

Additional observations from a re-analysis of the deposited data

Results flagged for a closer look

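Within the groups of 5, 8 and 10 libraries, 30 sets of values were examined for a single library far from the others, and 4 were found. The rule gives about 1 in 20 by chance only for normally distributed values in separate sets. These were CPM on a linear scale, and the sets share libraries. An excess over chance therefore cannot be read from 4 in 30. In 3 of the 4 sets the library was C 12, which lay above the other controls in HSPA9 (6320 CPM), DNAJA1 (1679 CPM) and HSPH1 (442.8 CPM). The other was HSPE1 in WSD 8 (552.9 CPM), above the remaining WSD libraries. C 12 also had a TMM factor of 0.708. In CPM with no such factor, C 12 was still the highest of 25 libraries in HSPA9 (4449, next T 4 at 2588) and in DNAJA1 (1182, next T 1 at 846.8). HSPH1 in C 12 was then 311.6, the highest control but the 4th of 25 libraries. HSPE1 in WSD 8 was then 534, the highest WSD library and the 4th of 25 libraries. The search for far libraries used scaled CPM and was not run on the unscaled values or on log2 values. The finding of 4 in 30 sets thus holds for scaled CPM on a linear scale only.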

How the results depend on the processing

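Counts of called members moved with tool and libraries. In T against C (2), 0 members passed with limma voom, in the fit of the groups compared alone, with the replicate block, without C 8, C 11 and C 12, and without these and T 1. In WSD against C (1), 2 passed with DESeq2, with its size factors and with library totals, and 0 with limma voom, the groups alone, the block and both reduced sets. In TWSD against C (1), 2 passed with DESeq2 and 0 with limma voom, the groups alone, the block and without C 8, C 11 and C 12. In TWSD against T and WSD (0), 1 passed with DESeq2, the groups alone and without C 8, C 11, C 12 and T 1. Leaving out 1 library gave 0 to 4, 0 to 3, 0 to 3, 0 to 0 (T against WSD), 0 to 2 and 0 to 1 (interaction). Over all genes, leaving out 1 library gave 64 to 1249 calls in T against C, 57 to 1103 in WSD, 0 to 2784 in TWSD, 0 to 2702 in TWSD against T and WSD and 0 to 2235 in the interaction. With all libraries, T against C had 573 calls, 1097 with DESeq2, 240 with library totals, 114 with the groups alone and 0 with limma voom or the block; WSD against C had 567, then 1171, 321, 30 and 0, and TWSD against C 167, then 1995, 96, 0 and 0. TWSD against T and WSD had 14 calls, 675 with DESeq2 and 496 with the groups alone, and the interaction 10 and 392 with DESeq2. The labels do not say whether equal numbers in the titles mark a pair. Over 16 same-numbered pairs across groups, deviations from group means correlated between -0.376 and 0.222, with 3 above 0.1. Such values cannot decide whether libraries shared a parent or a day. The block also uses up degrees of freedom, and the reduced sets keep only C 1 and C 2 as controls. Calls lost in these fits are not, by themselves, described as weaker effects.

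Signs turned for members that had not passed, and the cause was not tested. HSPA9 in T went to 0.82 with limma voom, 0.069 with library totals, 0.51 with the block, 0.43 without C 8, C 11 and C 12, and 0.48 without these and T 1. HSPA9 in WSD went to 0.68 with limma voom, 0.33 with the block and 0.33 in both reduced sets, and in TWSD to 0.81, 1.16, 0.41 and 0.41. HSPH1 in T went to -0.10 with DESeq2 and with its size factors, and in WSD to 0.12 with limma voom, 0.015 with library totals, 0.17 with the block and 0.34 in both reduced sets. HSPE1 went to -0.38 and -0.34 in T, -0.63 in WSD and -0.27 in TWSD in the reduced sets, and to -0.028 in WSD with the block. DNAJA1 in T was 0.0012 without C 8, C 11 and C 12. DNAJB1 in T went to 0.10 with limma voom, 0.086 with library totals and 0.25 with the block, and in WSD to 0.14 with the block. Among other genes the reduced sets gave 0.056 and 0.10 for HSPA5, 0.37 and 0.19 for BAG3, 1.40 and 1.37 for HSPA13, and 0.41 and 0.26 for HSPB8 in T, and 0.044 for HYOU1 and 0.019 for HSPB8 in WSD. HSPA13 was 0.10 with limma voom and HSF4 0.87 with the block. Leaving out 1 library gave ranges across 0 in T for HSPA9 (-0.49 to 0.62), HSPH1 (-0.11 to 0.35) and DNAJB1 (-0.23 to 0.10), in WSD for HSPA9 (-0.59 to 0.52), HSPH1 (-0.32 to 0.14) and HSPE1 (-0.11 to 0.71), and in TWSD for HSPA9 (-0.49 to 0.60), HSPH1 (-0.37 to 0.90) and DNAJB1 (-0.42 to 0.85). For DNAJB1 it ran from -0.29 to 0.99 in TWSD against T and WSD and from -0.15 to 1.13 in the interaction. With 2 TWSD libraries, each is assumed to vary like the other groups when the other is left out.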
